A study of Mus musculus with 24 samples.

Results

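RNA levels of 7 genes that build the core of O-glycans or branch and extend it were analyzed in the mouse colorectal cancer cell line MC38. The genes were C1galt1c1, C1galt1, Gcnt1, Gcnt2, Gcnt3, Gcnt4 and B3gnt3. They were taken by name from a table of 52636 genes. All 7 were found in the table, and 6 of them passed the filter on low values in every comparison. Poly(A) RNA was sequenced from 24 samples, 3 from each of 8 lines.

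MC38-WT was the parental line. MC38-MOCK#1 carried an empty CRISPR/Cas9 construct and was the reference of MC38-CMAS KO (knockout of Cmas), MC38-COSMC KO (knockout of C1galt1c1) and MC38-DKO (knockout of both). MC38-MOCK#2 was the mock line of a CRISPR-dCas-VPR activation system, in which a Cas9 that does not cut carries an activator to a promoter, and was the reference of the lines labelled MC38-FUT4 and MC38-FUT9. All lines except MC38-WT were grown with puromycin. MC38-COSMC KO was a bulk population sorted on strong binding of the lectin HPA, which recognizes the Tn antigen, and each condition was represented by 1 line. The samples of a line were harvests at different passages, except that replicates 1 and 3 of the line labelled FUT4 have the same passage label. A p-value thus measures the spread between harvests within a line. Passages were 4 to 6 in MC38-MOCK#1 and the 3 knockout lines, 7 to 9 in MC38-WT, 6 to 8 in MC38-MOCK#2 and MC38-FUT9, and 7 to 8 in the line labelled FUT4. MC38-WT shares no passage with MC38-MOCK#1 and the knockout lines, and there the line and the passage cannot be told apart, while MC38-MOCK#2 shares passage 6 with them.

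O-glycans of the mucin type start with a GalNAc on serine or threonine, the Tn antigen. The T-synthase, encoded by C1galt1, adds galactose to it and makes core 1, and it folds only with the help of its chaperone COSMC, encoded by C1galt1c1. Core 2 branches are added to core 1 by the enzymes of Gcnt1, Gcnt3 and Gcnt4, of which that of Gcnt3 is the mucin type and also makes core 4. Gcnt2 encodes the I-branching enzyme, which branches chains of N-acetyllactosamine and not the core itself. B3gnt3 encodes an enzyme that adds N-acetylglucosamine to core 1 and so extends it. Without COSMC core 1 is not made, and the Tn antigen, which sialylation and core 3 synthesis can still modify, is left exposed.

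The deposited values, here called normalized counts, are read counts that the authors scaled for each library and rounded, and their totals lay between 10911849 and 12263307 per sample. The targeted genes were examined first. Cmas, the enzyme that activates sialic acid, had 93 to 142 normalized counts in the 6 samples of MC38-CMAS KO and MC38-DKO and at least 272 in each of the other samples. Fut4 was at 0 in 22 samples and at 1 in replicates 1 and 3 of the line labelled FUT4, whereas Fut9 had 209, 171 and 186 normalized counts in that line and 955, 641 and 676 in MC38-FUT9, against at most 7 elsewhere. The label of the line labelled FUT4 is thus not borne out by its RNA. The summed level of 7 epithelial markers (Vil1, Cdx2, Cdh1, Krt19, Krt8, Krt18 and Epcam) was 0 to 19 normalized counts. None of these 7 reached a mean of 10. Of 5 mesenchymal or fibroblast markers, Vim had line means of 22110 to 28993, whereas Thy1 was at 0 throughout. Line means of Col1a2 ran from 6.33 in the line labelled FUT4 to 104 in MC38-WT. Those of Col1a1 ran from 25.3 in the line labelled FUT4 to 220 in MC38-CMAS KO. Those of Pdgfrb ran from 47.7 in MC38-DKO to 755 in MC38-FUT9. The defining epithelial markers of a colon cell were therefore at or near 0 in this line. Leukocyte markers summed to 2 to 21 and endothelial markers to 0 to 19 normalized counts.

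C1galt1c1, the gene of the chaperone, had 208, 202 and 244 normalized counts in MC38-WT, 242, 220 and 251 in MC38-MOCK#1, and 215, 181 and 152 in MC38-CMAS KO. It had 145, 163 and 124 in MC38-COSMC KO and 206, 166 and 175 in MC38-DKO. In the activation lines it had 173, 154 and 217 in MC38-MOCK#2, 184, 230 and 187 in the line labelled FUT4, and 210, 191 and 202 in MC38-FUT9. MC38-COSMC KO was the lowest line and did not overlap with MC38-MOCK#1, yet its RNA was still well above 0, and MC38-DKO lay within the range of MC38-CMAS KO. These values count reads over the whole gene and do not show whether its coding sequence was cut, so they do not check the knockout labels of this gene. No pair of lines next to each other in the order of means was separated without overlap. C1galt1c1 (ENSMUSG00000048970) has 2 exons and occupies 38630785 to 38635087 of chromosome X (GRCm38, minus strand).

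C1galt1, which encodes the T-synthase, had the narrowest range of line means among the 6 measured genes. Its normalized counts were 334, 415 and 455 in MC38-WT, 312, 324 and 277 in MC38-MOCK#1, 363, 394 and 343 in MC38-CMAS KO, 336, 344 and 302 in MC38-COSMC KO and 367, 341 and 320 in MC38-DKO. They were 347, 347 and 421 in MC38-MOCK#2, 320, 274 and 298 in the line labelled FUT4 and 437, 422 and 502 in MC38-FUT9. The highest line mean, that of MC38-FUT9, was 1.53-fold the lowest, that of the line labelled FUT4, and neighboring lines overlapped throughout. C1galt1 lies on the plus strand of chromosome 6 from 7844842 to 7875687 (ENSMUSG00000042460). It overlaps a gene model of the same strand, Gm43961, that had a mean of 8.58 normalized counts, and reads shared by both were not counted by the authors.

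Gcnt1, the core 2 enzyme of many cell types, had 173, 152 and 154 normalized counts in MC38-WT, 225, 200 and 174 in MC38-MOCK#1, 187, 168 and 175 in MC38-CMAS KO, 145, 153 and 152 in MC38-COSMC KO and 177, 193 and 204 in MC38-DKO. It had 197, 183 and 156 in MC38-MOCK#2, 190, 222 and 215 in the line labelled FUT4 and 136, 100 and 103 in MC38-FUT9. MC38-FUT9 was the lowest and was separated from MC38-COSMC KO, its neighbor in the order, without overlap. The other neighbors overlapped. Gcnt1 lies on the minus strand of chromosome 19 from 17326141 to 17356667 (ENSMUSG00000038843).

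Gcnt4, a further core 2 enzyme, followed another order. It had 126, 148 and 162 normalized counts in MC38-WT, 65, 70 and 80 in MC38-MOCK#1, 62, 54 and 72 in MC38-CMAS KO, 26, 31 and 31 in MC38-COSMC KO and 81, 77 and 73 in MC38-DKO. In the activation lines it had 125, 122 and 211 in MC38-MOCK#2, 109, 100 and 103 in the line labelled FUT4 and 49, 59 and 91 in MC38-FUT9. MC38-COSMC KO stood alone at the bottom, 2.14-fold below MC38-CMAS KO by the means and with no overlap. The step from MC38-WT down to the line labelled FUT4 and the step from there to MC38-DKO were also free of overlap, whereas the lines from MC38-DKO to MC38-CMAS KO overlapped with their neighbors. Gcnt4 lies on the plus strand of chromosome 13 from 96924689 to 96950906 (ENSMUSG00000091387).

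Gcnt3, the mucin-type enzyme, was at 0 in 23 of 24 samples and at 1 normalized count in replicate 3 of MC38-MOCK#1. No fold is given for it, since it stayed under 3 normalized counts in each library and was left out of each test by the filter. It lies on the minus strand of chromosome 9 from 70031496 to 70038088 (ENSMUSG00000032226).

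Gcnt2 and B3gnt3 varied most. Gcnt2 had 71, 81 and 84 normalized counts in MC38-WT, 129, 148 and 174 in MC38-MOCK#1, 92, 105 and 76 in MC38-CMAS KO, 84, 51 and 52 in MC38-COSMC KO and 153, 156 and 103 in MC38-DKO. It had 63, 68 and 72 in MC38-MOCK#2, 119, 96 and 114 in the line labelled FUT4 and 10, 14 and 13 in MC38-FUT9. The order of lines ran from MC38-MOCK#1 and MC38-DKO at the top through overlapping neighbors to MC38-COSMC KO, and MC38-FUT9 then followed 5.05-fold lower with no overlap. Gcnt2 lies on the plus strand of chromosome 13 from 40859754 to 40960892 (ENSMUSG00000021360), and its 6 annotated transcripts have 6 different starts, which the values per gene do not tell apart.

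B3gnt3 had 200, 286 and 237 normalized counts in MC38-WT, 452, 403 and 480 in MC38-MOCK#1, 309, 285 and 254 in MC38-CMAS KO, 252, 205 and 197 in MC38-COSMC KO and 502, 496 and 501 in MC38-DKO. It had 202, 199 and 269 in MC38-MOCK#2, 406, 319 and 391 in the line labelled FUT4 and 25, 26 and 35 in MC38-FUT9. Again MC38-MOCK#1 and MC38-DKO were at the top and MC38-FUT9 at the bottom, here 7.60-fold below MC38-COSMC KO. MC38-DKO was also separated without overlap from MC38-MOCK#1, and the line labelled FUT4 from MC38-CMAS KO. B3gnt3 lies on the minus strand of chromosome 8 from 71690756 to 71701789 (ENSMUSG00000031803), opposite to a gene model, Gm45756, with a mean of 5.67 normalized counts. Whether the authors counted by strand is not given in the sources used here.

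**Figure D1:**
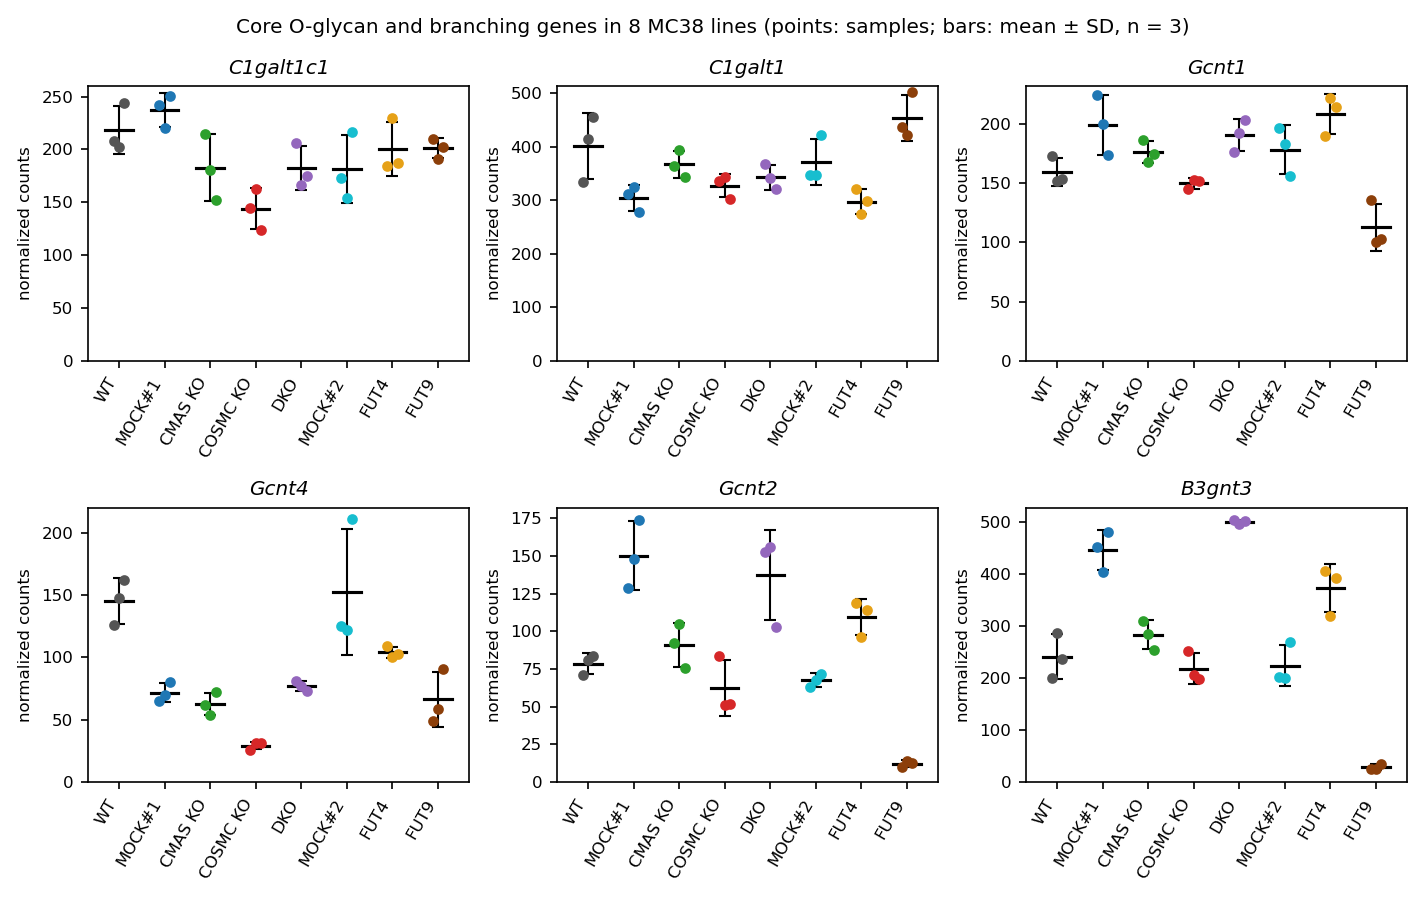
Normalized counts (y axis, starting at 0) of 6 genes in each of 8 MC38 lines (x axis), with points for samples and bars for the mean ± SD of 3 samples. C1galt1c1, C1galt1 and Gcnt1 stayed within a range of less than 2-fold between line means, while B3gnt3 ran from 25 to 35 in MC38-FUT9 up to 496 to 502 in MC38-DKO.

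Among all 26577 genes tested over the 8 lines, limma called a difference (adjusted p below 0.05, Benjamini-Hochberg) in 37.8%, and it called all 6 tested genes of the group. The adjusted p ran from 0.0103 for C1galt1c1 to 1.09e-13 for B3gnt3. Without replicate 3 of MC38-COSMC KO the C1galt1c1 value was 0.0510, the only call lost in the 24 fits that each left out 1 library. Differences between lines made up 65.9% of the variance of C1galt1c1 on the log2 scale, 74.0% of C1galt1, 83.8% of Gcnt1, 91.7% of Gcnt4, 96.4% of Gcnt2 and 98.3% of B3gnt3. The highest line mean exceeded the lowest 1.65-fold for C1galt1c1, 1.85-fold for Gcnt1, 5.20-fold for Gcnt4, 12.2-fold for Gcnt2 and 17.4-fold for B3gnt3. Over the 8 lines the pair of genes needed for core 1 and Gcnt1 thus stayed below 2-fold, and Gcnt4, Gcnt2 and B3gnt3 above 5-fold. For Gcnt2 and B3gnt3 the low end was MC38-FUT9 alone. Over the other lines their means ran from 62.3 to 150 and from 218 to 500 normalized counts. Gcnt4 ran from 29.3 in MC38-COSMC KO to 153 in MC38-MOCK#2, with MC38-FUT9 between them. These are bulk samples, in which fewer cells with a transcript and less of it per cell cannot be told apart.

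To compare levels between genes, the normalized counts were divided by the merged exon length in kb. Over the 24 samples the mean level per kb was 133 for C1galt1c1, 94.5 for B3gnt3, 58.8 for C1galt1, 30.9 for Gcnt1, 17.4 for Gcnt4, 12.6 for Gcnt2 and 0.00969 for Gcnt3. The order of B3gnt3 depended on the line. In MC38-DKO its level of 164 ± 1.05 per kb (SD, n = 3) was above that of C1galt1c1 at 126 ± 14.5, whereas in MC38-FUT9 its 9.38 ± 1.80 per kb lay below the 20.3 ± 3.59 of Gcnt1 and the 74.5 ± 6.98 of C1galt1. Between the core 2 enzymes, the level of Gcnt1 was 26.9 ± 0.782 per kb and that of Gcnt4 5.77 ± 0.567 in MC38-COSMC KO. In MC38-WT the levels were 28.7 ± 2.08 and 28.6 ± 3.57 per kb, which did not differ beyond their spread, and the mean ± SD ranges also overlapped in MC38-MOCK#2 and MC38-FUT9 but not in the other 5 lines.

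**Figure D2:**
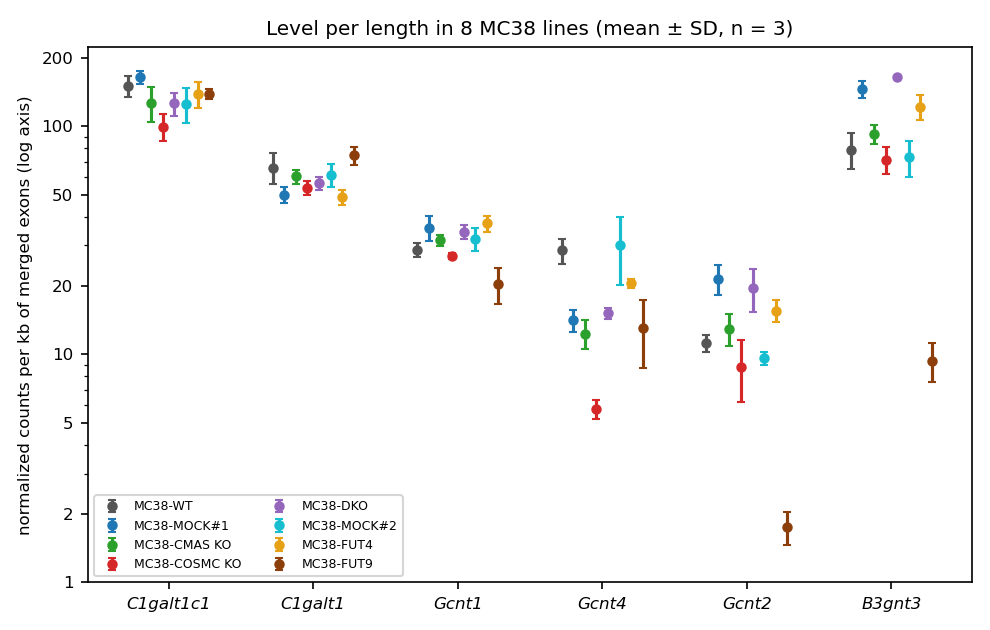
Normalized counts per kb of merged exons (log axis) for 6 genes, with the mean ± SD of 3 samples for each of 8 lines. C1galt1c1 spanned 99.4 in MC38-COSMC KO to 164 in MC38-MOCK#1, whereas B3gnt3 spanned 9.38 in MC38-FUT9 to 164 in MC38-DKO and Gcnt2 reached 1.75 in MC38-FUT9.

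Gcnt2 and B3gnt3 moved together across the lines. Excluding MC38-FUT9, which stood apart from the other lines in both genes, Pearson's r of their log2 values was 0.915 and Spearman's rho 0.900 over 21 samples. With MC38-FUT9 the values were 0.981 and 0.932 over 24 samples. Of the 13515 genes that averaged 10 or more normalized counts, B3gnt3 was the gene most like Gcnt2, ahead of Procr (r = 0.975), the endothelial protein C receptor, and Hvcn1 (r = 0.973), a proton channel. For B3gnt3, Gcnt2 ranked 2, between Procr (r = 0.983) and the protease gene Lgmn (r = 0.980). Without MC38-FUT9, B3gnt3 ranked 2 for Gcnt2 and Gcnt2 ranked 3 for B3gnt3. The points are samples of 8 lines that share their line, so these values describe the pattern and carry no p.

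**Figure D3:**
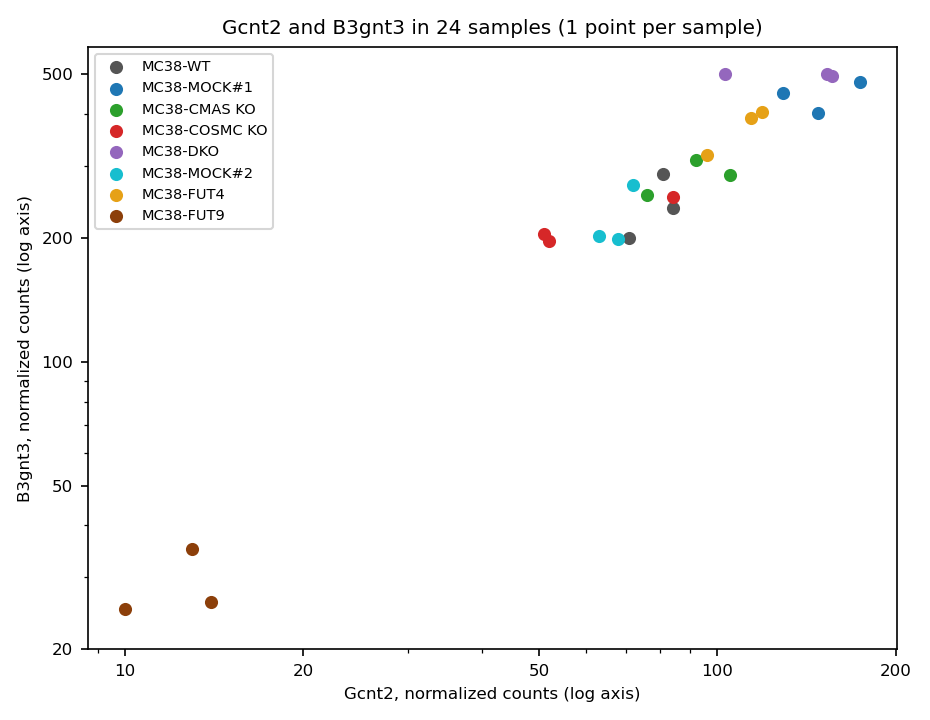
Normalized counts of Gcnt2 (x, log axis) and B3gnt3 (y, log axis) in 24 samples, with 1 color for each line. MC38-FUT9 lies alone at 10 to 14 and 25 to 35, MC38-COSMC KO, MC38-MOCK#2 and MC38-WT lie lowest among the rest, and MC38-MOCK#1 and MC38-DKO lie highest.

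Because these genes moved together, their promoters are shown, from 250 bases before to 50 after each start in RefSeq (GRCm38.p6), of which the table held 10 promoters for 5 of the 7 genes and none for C1galt1c1 or Gcnt3. Capitals mark the motifs found among 6 that were searched on both strands, TATAAA (a core promoter box), GGGCGG (GC box), CACGTG (E-box), TGACTCA (AP-1), GAAANNGAA (interferon response core) and CCAAT. B3gnt3 is given on the minus strand and Gcnt2, which has 3 promoters in the table, on the plus strand.
B3gnt3, chr8:71701751-71702050: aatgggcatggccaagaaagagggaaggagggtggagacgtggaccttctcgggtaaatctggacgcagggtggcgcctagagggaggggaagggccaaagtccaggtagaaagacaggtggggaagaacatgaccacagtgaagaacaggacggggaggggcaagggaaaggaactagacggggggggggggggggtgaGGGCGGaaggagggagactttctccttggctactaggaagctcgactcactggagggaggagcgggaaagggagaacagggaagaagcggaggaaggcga
Gcnt2, chr13:40859518-40859817: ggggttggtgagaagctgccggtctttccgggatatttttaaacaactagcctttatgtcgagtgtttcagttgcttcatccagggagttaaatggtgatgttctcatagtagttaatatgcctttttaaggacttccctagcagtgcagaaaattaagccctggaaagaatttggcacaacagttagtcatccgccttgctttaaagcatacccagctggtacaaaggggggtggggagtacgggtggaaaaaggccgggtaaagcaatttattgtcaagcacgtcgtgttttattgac
Gcnt2, chr13:40886508-40886807: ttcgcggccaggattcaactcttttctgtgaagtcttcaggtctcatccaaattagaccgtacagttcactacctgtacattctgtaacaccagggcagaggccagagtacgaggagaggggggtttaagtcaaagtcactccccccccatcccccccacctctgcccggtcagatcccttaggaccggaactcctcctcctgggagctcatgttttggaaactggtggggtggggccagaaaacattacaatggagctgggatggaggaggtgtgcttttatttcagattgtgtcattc
Gcnt2, chr13:40917384-40917683: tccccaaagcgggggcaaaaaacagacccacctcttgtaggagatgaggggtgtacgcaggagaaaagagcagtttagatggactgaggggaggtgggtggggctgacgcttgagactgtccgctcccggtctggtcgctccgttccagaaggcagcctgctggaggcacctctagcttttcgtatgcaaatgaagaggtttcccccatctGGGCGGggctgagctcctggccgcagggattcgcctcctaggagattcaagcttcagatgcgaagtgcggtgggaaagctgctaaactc
B3gnt3 and the last of the Gcnt2 promoters each held 1 GC box, which began 50 and 39 bases before the start, and none of the 6 motifs was found in the other Gcnt2 windows. A GC box occurred in 35.6% of 32817 mouse promoters of this length, so its presence in both is a common feature. The shares of the other motifs were 13.6% for TATAAA, 7.15% for CACGTG, 5.20% for TGACTCA, 8.55% for GAAANNGAA and 37.4% for CCAAT. Of the steadier genes, the C1galt1 promoter held 6 GC boxes and had a GC content of 82.7%, against 60.3% for B3gnt3 and 44.7%, 52.3% and 58.0% for the 3 Gcnt2 promoters. The 3 promoters of Gcnt1, also among the steadier genes, held no GC box and had a GC content of 52.0%, 58.7% and 40.7%. Those of Gcnt4, among the more variable genes, had 49.7% and 62.7%, and the latter held 2 GC boxes.

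The other genes had their own most alike genes over the 24 samples. These include MC38-FUT9, the line with the highest C1galt1 mean and the lowest Gcnt1 mean, and the ranking was not repeated without it. C1galt1 was most like Slc35a3 (r = 0.891), which encodes the transporter of UDP-N-acetylglucosamine, followed by Rab28 and Camk1d. Gcnt4 was most like Galk2 (r = 0.856), the kinase of N-acetylgalactosamine, followed by Rmnd5b and Cp. Gcnt1 was most like the tubulin gene Tubb4b (r = 0.919), followed by Uck1 and Mtfp1, and C1galt1c1 was most like Uxs1 (r = 0.763), which makes UDP-xylose, followed by Sccpdh and Skil.

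The knockout of C1galt1c1 was compared with MC38-MOCK#1 to ask how the group changed when COSMC was targeted. In MC38-COSMC KO, 4 of the 6 tested genes fell and none rose, against 11.6% of 22172 genes called, of which 6.17% of the tested genes were higher and 5.39% lower. C1galt1c1 itself fell by 0.73 on the log2 scale (SE 0.125, adjusted p = 0.0128, limma). B3gnt3 fell by 1.03 (SE 0.119, adjusted p = 0.00284), Gcnt2 fell by 1.285 (SE 0.224, adjusted p = 0.0132) and Gcnt4 fell by 1.26 (SE 0.179, adjusted p = 0.00645). The means were 1.65-fold, 2.04-fold, 2.41-fold and 2.44-fold lower, and the highest sample of MC38-COSMC KO lay below the lowest of MC38-MOCK#1 in each of these genes. C1galt1 differed by 0.11 (SE 0.0943, adjusted p = 0.544) and Gcnt1 by -0.40 (SE 0.117, adjusted p = 0.0709), which were not called. The calls of Gcnt4 and B3gnt3 held without any 1 of the 6 libraries, with adjusted p up to 0.0463. They were lost in a fit with the replicate number as a block (adjusted p = 0.0893 and 0.0891, limma), which called 0 genes of the group. C1galt1c1 lost its call without replicate 1 of MC38-COSMC KO or without replicate 1, 2 or 3 of MC38-MOCK#1 (adjusted p = 0.0505 to 0.0659), and Gcnt2 lost its call without any library other than replicate 1 of MC38-COSMC KO (adjusted p = 0.0555 to 0.0841). Gcnt1 gained a call without replicate 3 of MC38-MOCK#1.

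None of the 6 measured neighbors of C1galt1c1 on chromosome X, Lamp2, Cul4b, Mcts1, Ap3s1-ps1, Thoc2 and Xiap, was called in this comparison, in which Lamp2 had the lowest adjusted p (0.0585, log2 fold change -0.36, limma). At an unadjusted p below 0.05, 3 of the 6 passed, Lamp2 and Cul4b (-0.25) lower and Xiap (0.18) higher. The 6 were the nearest genes with a mean of at least 10 normalized counts, 3 on either side. Thoc2 and Xiap lay farthest off, with starts at 41794991 and 42059679.

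Set against MC38-WT instead, MC38-COSMC KO showed 1 called gene of the group, Gcnt4, where 0.581% of all tested genes were called, 0.229% higher and 0.353% lower. Gcnt4 fell by 2.27 on the log2 scale (SE 0.189, adjusted p = 0.00505), with means of 29.3 ± 2.89 and 145 ± 18.1 normalized counts. This call was lost without any library other than replicate 1 of MC38-WT (adjusted p = 0.0620 to 0.211), while the log2 difference kept its direction. C1galt1c1 differed by -0.60 (SE 0.146, adjusted p = 0.129), Gcnt2 by -0.37 (adjusted p = 0.520) and B3gnt3 by -0.14 (adjusted p = 0.756). Gcnt4 was thus the gene of the group that was called lower in MC38-COSMC KO against either control, and B3gnt3 and Gcnt2 were lower than in MC38-MOCK#1 with levels that overlapped those of MC38-WT. Both comparisons share the samples of MC38-COSMC KO.

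The control lines differed from each other as well. In MC38-WT against MC38-MOCK#1, 5.51% of genes were called, 2.70% higher and 2.81% lower, and of the group Gcnt4 rose (log2 fold change 1.01, adjusted p = 0.0178) while B3gnt3 and Gcnt2 fell (-0.89, adjusted p = 0.0196, and -0.92, adjusted p = 0.0244). In MC38-MOCK#2 against MC38-MOCK#1, where 11.3% were called, 5.30% higher and 6.02% lower, the same 3 genes passed, Gcnt4 at 1.04 (adjusted p = 0.0355), B3gnt3 at -1.002 (adjusted p = 0.00737) and Gcnt2 at -1.13 (adjusted p = 0.00647). At passage 6, which both mock lines share with 1 sample each, MC38-MOCK#2 had 202 and MC38-MOCK#1 480 normalized counts of B3gnt3, 63 and 174 of Gcnt2, and 125 and 80 of Gcnt4. Both comparisons share the 3 MC38-MOCK#1 samples. Between MC38-MOCK#2 and MC38-WT none of the 6 genes was called by limma and none reached an unadjusted p below 0.05, where 3.11% of all genes were called, 1.35% higher and 1.77% lower. Thus MC38-MOCK#1 had more B3gnt3 and Gcnt2 RNA and less Gcnt4 RNA than the other mock line and than the parental line.

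These control differences rested on single libraries to a varying degree. For MC38-WT against MC38-MOCK#1, Gcnt2 lost its call without any 1 of the 6 libraries (adjusted p = 0.0667 to 0.140), Gcnt4 without any library other than replicate 1 of MC38-WT (0.0554 to 0.115) and B3gnt3 without any library other than replicate 2 of MC38-WT (0.0502 to 0.124). For MC38-MOCK#2 against MC38-MOCK#1, Gcnt2 lost it without replicate 2 of MC38-MOCK#1 (adjusted p = 0.0529), B3gnt3 without replicate 1 or 2 of MC38-MOCK#1 (0.0505 to 0.0568), and Gcnt4 without any library other than replicate 3 of MC38-MOCK#2 (0.0812 to 0.141), the sample with 211 normalized counts. C1galt1c1 gained a call without that library.

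In MC38-CMAS KO, B3gnt3 was the only gene of the group called against MC38-MOCK#1 in the main fit, beside 5.76% of genes called, 3.02% higher and 2.73% lower. It fell by 0.65 on the log2 scale (SE 0.106, adjusted p = 0.0194). Its means were 283 ± 27.6 and 445 ± 39.0 normalized counts with no overlap. The call was lost without any 1 of the 6 libraries (adjusted p = 0.0540 to 0.102). Gcnt2 differed by -0.72 (SE 0.171, adjusted p = 0.0611) and C1galt1c1 by -0.39 (adjusted p = 0.168), also with no overlap between the samples of both lines. At an unadjusted p below 0.05 (limma), 4 of the 6 passed. These were B3gnt3, Gcnt2 and C1galt1c1, all lower, and C1galt1, which was higher (0.27, adjusted p = 0.159). Gcnt4, which was lower in MC38-COSMC KO, differed by -0.20 (SE 0.170, adjusted p = 0.566).

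In MC38-DKO none of the 6 tested genes was called by limma against MC38-MOCK#1, where 0.0920% of all tested genes were called, 0.0230% higher and 0.0690% lower. At an unadjusted p below 0.05, 1 of the 6 passed, C1galt1c1, with a log2 fold change of -0.38 (SE 0.122, adjusted p = 0.459). B3gnt3 differed by 0.17 (adjusted p = 0.717), Gcnt2 by -0.14 (adjusted p = 0.902) and Gcnt4 by 0.11 (adjusted p = 0.915).

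Against MC38-CMAS KO, from which it differs by its label in the additional knockout of C1galt1c1, MC38-DKO had more B3gnt3 RNA, with a log2 fold change of 0.82 (SE 0.0958, adjusted p = 0.00299), where 6.93% of genes were called, 3.15% higher and 3.78% lower. The call was lost without replicate 2 of MC38-CMAS KO (adjusted p = 0.05004). C1galt1c1 differed by 0.01 (SE 0.156, adjusted p = 1), with 182 ± 20.98 normalized counts in MC38-DKO and 183 ± 31.5 in MC38-CMAS KO, and none of its 6 neighbors was called by limma or reached an unadjusted p below 0.05. Against MC38-COSMC KO, where 12.9% of genes were called, 6.15% higher and 6.75% lower, B3gnt3 rose by 1.201 (SE 0.107, adjusted p = 0.000619), Gcnt4 by 1.37 (SE 0.180, adjusted p = 0.00282) and Gcnt2 by 1.14 (SE 0.248, adjusted p = 0.0218). The calls of B3gnt3 and Gcnt4 held without any 1 library, and that of Gcnt2 was lost without replicate 2 or 3 of MC38-COSMC KO or replicate 1 or 2 of MC38-DKO (adjusted p = 0.102 to 0.136). Gcnt1 gained a call without replicate 1 of MC38-DKO.

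The difference between MC38-COSMC KO and MC38-MOCK#1 was then compared with that between MC38-DKO and MC38-CMAS KO in a fit of the 4 lines. The difference of both log2 fold changes was called in 19.0% of 24385 genes and in 5 of the 6 genes of the group. It was -1.86 for B3gnt3 (SE 0.155, adjusted p = 2.28e-06), whose log2 fold change was -1.03 for MC38-COSMC KO against MC38-MOCK#1 and 0.82 for MC38-DKO against MC38-CMAS KO. For Gcnt2 it was -1.86 (SE 0.315, adjusted p = 0.000862), for Gcnt4 -1.56 (SE 0.252, adjusted p = 0.000604), for C1galt1c1 -0.73 (SE 0.205, adjusted p = 0.0224) and for Gcnt1 -0.52 (SE 0.161, adjusted p = 0.0378). C1galt1 did not pass (0.20, SE 0.136, adjusted p = 0.367). For B3gnt3, Gcnt2 and Gcnt4 the call held in each of 12 fits without 1 library, with adjusted p up to 0.00556. C1galt1c1 lost it in 5 of them (adjusted p = 0.0504 to 0.0618), those without replicate 3 of MC38-CMAS KO, replicate 3 of MC38-COSMC KO, replicate 1 of MC38-DKO or replicate 1 or 3 of MC38-MOCK#1. Gcnt1 lost it in 9 (adjusted p = 0.0567 to 0.0849), with 3 exceptions, the fits without replicate 1 of MC38-CMAS KO, replicate 1 of MC38-DKO or replicate 3 of MC38-MOCK#1.

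**Figure D4:**
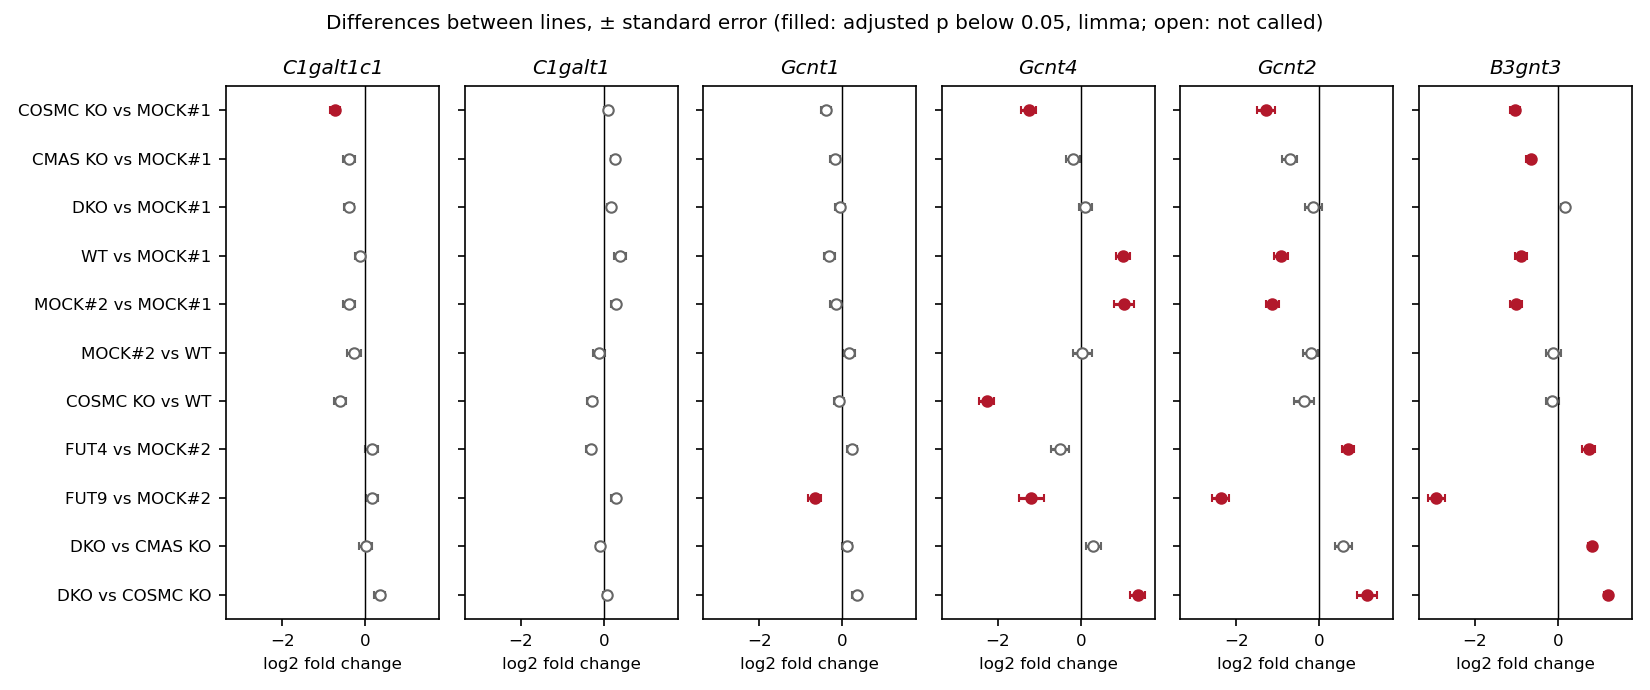
Log2 fold changes (x axis, on log2 of the normalized count plus 1) of 6 genes in 11 comparisons between lines (rows), with bars for the standard error, filled where limma called the gene. C1galt1 was not called in any row, while B3gnt3 was called in 8 rows and ran from -2.92 in MC38-FUT9 to 1.201 in MC38-DKO against MC38-COSMC KO.

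In MC38-FUT9, the line with the most Fut9 RNA, 4 of the 6 genes fell against MC38-MOCK#2 and none rose, beside 24.1% of genes called, 12.1% higher and 12% lower. B3gnt3 fell by 2.92 on the log2 scale (SE 0.193, adjusted p = 0.000302), with 28.7 ± 5.51 against 223 ± 39.6 normalized counts, a 7.79-fold difference. Gcnt2 fell by 2.37 (SE 0.212, adjusted p = 0.000675), with 12.3 ± 2.08 against 67.7 ± 4.51, a 5.49-fold difference. These calls held without any 1 of the 6 libraries, with adjusted p up to 0.0104. Gcnt4 fell by 1.19 (SE 0.297, adjusted p = 0.0285) and Gcnt1 fell by 0.66 (SE 0.158, adjusted p = 0.0241). Gcnt4 lost its call without any library other than replicate 3 of MC38-FUT9 (adjusted p = 0.0712 to 0.126), and Gcnt1 without replicate 2 or 3 of MC38-FUT9 or replicate 1 or 2 of MC38-MOCK#2 (0.0863 to 0.0969). C1galt1 differed by 0.29 (SE 0.110, adjusted p = 0.109), with a call without replicate 3 of MC38-MOCK#2, and C1galt1c1 by 0.16 (SE 0.138, adjusted p = 0.459).

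In the line labelled FUT4, which also held Fut9 RNA at a lower level, B3gnt3 and Gcnt2 lay on the other side of MC38-MOCK#2. B3gnt3 rose by 0.74 (SE 0.152, adjusted p = 0.0193) and Gcnt2 by 0.68 (SE 0.143, adjusted p = 0.0203), where 16.1% of genes were called, 8.10% higher and 8.04% lower. The means were 372 ± 46.5 against 223 ± 39.6 and 110 ± 12.1 against 67.7 ± 4.51 normalized counts, with no overlap. Both calls were lost without replicate 1 or 3 of the line labelled FUT4 or replicate 1 or 2 of MC38-MOCK#2 (adjusted p = 0.0592 to 0.0992), and replicates 1 and 3 of that line have the same passage label. Gcnt4 differed by -0.50 (SE 0.220, adjusted p = 0.184). Both activation lines were set against the same 3 MC38-MOCK#2 samples, and the difference between them was not tested.

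The remaining steps of the pathway were followed in 63 genes of 5 lists, the GalNAc transferases that start O-glycans, sialyltransferases of O-glycans, enzymes of core 3 and of elongation, genes of sugar nucleotide supply and transport, and carriers of O-glycans. In MC38-COSMC KO against MC38-MOCK#1, 4 of the 48 tested genes rose and 4 fell, beside 11.6% of all genes called, with a median log2 fold change of -0.05 beside 0 over all genes tested. Those that fell were Podxl (log2 fold change -0.99, adjusted p = 0.00227), a sialomucin of the cell surface, Galk2 (-0.54, adjusted p = 0.0245), the kinase of N-acetylgalactosamine, Galt (-0.52, adjusted p = 0.0229) of galactose metabolism, and B4galt4, a galactosyltransferase with 6.67 ± 2.52 against 23.3 ± 5.03 normalized counts. Those that rose were Gnpnat1 (0.53, adjusted p = 0.0250), B4galt2 (0.46, adjusted p = 0.0111) and, named after their values were seen, St3gal4 and Lrp8. No GalNAc transferase was called among 11 tested. Against MC38-WT, Galk2 fell (-0.90, adjusted p = 0.0173) and the other 47 tested genes did not pass, beside 0.581% of all genes called. Without 1 library, the 8 calls against MC38-MOCK#1 became 4, 1 and 2 (without replicate 1, 2 or 3 of MC38-COSMC KO) or 3 and 1 (without replicate 1 or 2 of MC38-MOCK#1) and stayed at 8 without replicate 3 of MC38-MOCK#1, and the call of Galk2 against MC38-WT was lost without any 1 of the 6 libraries.

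Podxl had a wide range, with the lowest level in MC38-FUT9. Its means were 462 ± 39.8 normalized counts in MC38-MOCK#1, 246 ± 22.7 in MC38-WT, 53.3 ± 13.6 in MC38-MOCK#2, 617 ± 43.1 in the line labelled FUT4, 18.0 ± 1.73 in MC38-FUT9, 233 ± 22.7 in MC38-COSMC KO and 540 ± 45.9 in MC38-DKO. In MC38-MOCK#2 against MC38-MOCK#1, 4 of the 47 tested genes of the lists rose (Galk2, Galk1, Cd34 and B4galt2) and 2 fell (Podxl and B4galt4), with a median of 0.05 beside -0.01 over all genes and 11.3% of all genes called. Without 1 library the 6 calls became 2 or 3, except that they stayed at 6 without replicate 3 of MC38-MOCK#1. Between MC38-MOCK#2 and MC38-WT 3 fell, Podxl, B4galt4 and Lrp8, of 45 (median -0.09, beside 0), where 3.11% of all genes were called. Without 1 library these became 1, or 0 without replicate 2 of MC38-MOCK#2 or replicate 3 of MC38-WT. Between MC38-WT and MC38-MOCK#1, 3 of 47 rose (Gnpnat1, St3gal4 and Cd44) and 1 fell, Podxl (median 0, beside -0.01), where 5.51% of all genes were called. These 4 calls became 0 without any 1 of the MC38-MOCK#1 libraries or without replicate 3 of MC38-WT, and 3 and 2 without its replicate 1 or 2.

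In MC38-FUT9 against MC38-MOCK#2, 10 of the 45 tested genes of the lists rose and 7 fell, with a median of 0.09 beside 0.01 over all genes. This compares with 24.1% of all genes called, 12.1% higher and 12% lower. Without 1 library, 11 to 16 of the 17 calls were made, with 11 without replicate 1 of MC38-FUT9. Carriers of O-glycans were among those that fell, with Muc1 at -2.09 (adjusted p = 0.00860), Podxl at -1.49 (adjusted p = 0.00657) and Spn at -1.12 (adjusted p = 0.0446), while Lrp8 and Sdc1 rose. Among the genes of sugar nucleotide supply, Slc35d2 fell, at -1.48 (adjusted p = 0.0154), as did Galk2 at -1.34 (adjusted p = 0.000630) and Galt, while Gnpnat1, Uap1 and Slc35a3 rose. The GalNAc transferases Galnt1 and Galnt7 rose, 2 of 9 tested, and so did the sialyltransferase St3gal4, 1 of 4, and B4galt2 and B4galt6, 2 of 8 enzymes of core 3 and elongation.

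The line labelled FUT4 had 5 higher and 6 lower genes of 47 (median -0.11, beside 0), where 16.1% of all genes were called, with Podxl at 3.54 (adjusted p = 0.000178), Cd34 at -0.81 (adjusted p = 0.00140) and Lrp8 at 0.60 (adjusted p = 0.00232). The 11 calls became 6 or 7 without replicate 1 or 3 of that line and 5 without replicate 2 of MC38-MOCK#2, and numbered 9 to 11 without 1 of the others.

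In MC38-CMAS KO against MC38-MOCK#1, 3 of 48 rose, Lrp8 (0.47, adjusted p = 0.0287), St3gal4 (0.37, adjusted p = 0.0393) and Cd44 (0.35, adjusted p = 0.0201), and none fell (median 0.02, beside 0), where 5.76% of all genes were called. These 3 calls were lost without any 1 library other than replicate 3 of MC38-MOCK#1. In MC38-DKO none of 47 passed against MC38-MOCK#1 (median -0.09, beside 0, and 0.0920% of all genes called), with 4 at an unadjusted p below 0.05. Against MC38-CMAS KO, 4 of 46 fell in MC38-DKO, Galk1, Lrp8, Dag1 and B4galt1, and none rose (median -0.09, beside 0), where 6.93% of all genes were called. The 4 calls became 0 without any 1 of the MC38-CMAS KO libraries or without replicate 2 of MC38-DKO, 1 without its replicate 3 and 3 without its replicate 1. Against MC38-COSMC KO, 3 of 47 rose, Podxl (1.21, adjusted p = 0.000579), Galt (0.66, adjusted p = 0.00786) and Galk2 (0.46, adjusted p = 0.00952), and 8 fell (median -0.09, beside 0), where 12.9% of all genes were called. The 11 calls became 3 without replicate 2 of MC38-COSMC KO, 5 without its replicate 1 or 3, and 9, 5 and 7 without replicate 1, 2 or 3 of MC38-DKO.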

How the data were processed

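The genes described here and the pathway lists were chosen with earlier results of these data known. RNA of 24 samples was measured, and each value is a score per gene: the authors aligned trimmed reads to GRCm38 with HISAT2 2.0.4, counted reads that fell on 1 gene only with featureCounts (Subread 1.5.0-p3), scaled those counts per library with edgeR 3.18.1 and deposited the scores as whole numbers. They are not raw counts, and the depth in reads was not used here.

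Lines were compared over all genes with limma 3.58.1 in R 4.3.3 (lmFit, then eBayes with a trend). The input was log2(value + 1) of the 6 samples compared, without covariates, and fold changes are on that scale. A gene had to be above 0 in at least 2 of the 6, and is named called where the p adjusted after Benjamini and Hochberg was below 0.05. The fit was tested on simulated data. Genes of the lists were named if they were among the 6 with the largest change called in a comparison, others were named after their values were seen, and genes most alike were the 3 with the highest Pearson's r. Levels per kb used the merged exon length that the authors gave with the values, and GENCODE M21 was used for transcripts and their starts. Alternatives were 2 other pseudocounts, 2 filters, 2 scalings, no trend, a fit of all 8 lines, a replicate block, a fold threshold and leaving out each sample. The guide RNA sequence is not used here, and 1 item is not reported here.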

Additional observations from a re-analysis of the deposited data

Results flagged for a closer look

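For 5 genes, the log2 fold change of MC38-COSMC KO against MC38-MOCK#1 differed from that of MC38-DKO against MC38-CMAS KO in a direct test of that difference with limma. The differences were -1.86 for B3gnt3, -1.86 for Gcnt2, -1.56 for Gcnt4, -0.73 for C1galt1c1 and -0.52 for Gcnt1. For Gcnt1 neither of the 2 comparisons called the gene by itself. Both MC38-MOCK#1 and MC38-DKO enter this contrast with the same sign, and they were the lines with the highest levels of B3gnt3 and Gcnt2.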

How the results depend on the processing

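Pseudocounts of 0.5 or 5, no filter, median-of-ratios scaling and rescaling to the same total left the number of genes called in each comparison within 1.5 times. Median-of-ratios scaling turned the sign of C1galt1c1 in MC38-DKO against MC38-CMAS KO to -0.00058. In MC38-CMAS KO against MC38-MOCK#1, 2 genes instead of 1 were called with a mean of at least 10 or in a fit of all 8 lines. The latter also called 2 instead of 1 in MC38-COSMC KO against MC38-WT. Without the trend, the called genes were 0 in MC38-CMAS KO against MC38-MOCK#1, 1 in the line labelled FUT4, 2 in MC38-FUT9 and 3 in the difference of both effects. With an absolute log2 fold change above 1 required, they were 0, 0 and 0 in MC38-CMAS KO against MC38-MOCK#1, MC38-DKO against MC38-CMAS KO and the line labelled FUT4, 1 in MC38-WT against MC38-MOCK#1 and 3 in the difference of both effects. The cause of the other changes was not tested.

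Same-numbered samples did not deviate together in all 3 pairs of any comparison at r over 0.1, a cutoff that cannot exclude pairing. All 3 values of r were positive in some comparisons, such as that of MC38-FUT9 with its mock line, but not in others, such as that of MC38-COSMC KO with its mock line. Same-numbered samples have the same passage label within MC38-MOCK#1 and the knockout lines, and within MC38-MOCK#2 and MC38-FUT9. Whether the numbers pair the samples was thus not settled. With the replicate block, which leaves fewer degrees of freedom, the called genes were 0 instead of 4 in MC38-COSMC KO against MC38-MOCK#1 (5 at an unadjusted p below 0.05, limma), 0 instead of 1 in MC38-CMAS KO against MC38-MOCK#1 (3 unadjusted) and in MC38-COSMC KO against MC38-WT (2 unadjusted), 0 instead of 3 in MC38-WT against MC38-MOCK#1 (4 unadjusted) and 0 instead of 2 in the line labelled FUT4 (3 unadjusted), but 5 instead of 4 in MC38-FUT9.

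Leaving out 1 library, which also removes a sample, gave 2 to 3 called genes in MC38-COSMC KO against MC38-MOCK#1, 0 to 0 in MC38-CMAS KO against MC38-MOCK#1, 0 to 1 in MC38-WT against MC38-MOCK#1, 0 to 4 in MC38-MOCK#2 against MC38-MOCK#1, 0 to 1 in MC38-COSMC KO against MC38-WT, 0 to 2 in the line labelled FUT4, 2 to 4 in MC38-FUT9, 0 to 1 in MC38-DKO against MC38-CMAS KO and 3 to 5 in the difference of both effects. Signs turned among log2 fold changes that were not called. For MC38-DKO against MC38-MOCK#1 Gcnt1 ran from -0.15 to 0.034 and Gcnt2 from -0.25 to 0.0498, for MC38-MOCK#2 against MC38-WT Gcnt4 ran from -0.23 to 0.17 and B3gnt3 from -0.25 to 0.0224, and for MC38-DKO against MC38-CMAS KO C1galt1c1 ran from -0.12 to 0.13.

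The counts of called genes in the 5 pathway lists moved more. In a fit of all 8 lines they were 12 instead of 4 in MC38-WT against MC38-MOCK#1, 14 instead of 6 in MC38-MOCK#2 against MC38-MOCK#1, 13 instead of 3 in MC38-MOCK#2 against MC38-WT, 3 instead of 1 in MC38-COSMC KO against MC38-WT, 5 instead of 3 in MC38-CMAS KO against MC38-MOCK#1 and 9 instead of 4 in MC38-DKO against MC38-CMAS KO. With a mean of at least 10 they were 5 and 7 in MC38-MOCK#2 against MC38-WT and MC38-DKO against MC38-CMAS KO. In the order MC38-COSMC KO, MC38-CMAS KO, MC38-WT and MC38-MOCK#2 against MC38-MOCK#1, they were 2, 0, 2 and 3 without the trend and 1, 0, 0 and 2 with the fold threshold. In the line labelled FUT4, MC38-DKO against MC38-CMAS KO, MC38-DKO against MC38-COSMC KO and MC38-COSMC KO against MC38-WT they were 5, 0, 3 and 0 without the trend and 2, 0, 1 and 0 with the fold threshold, which left 6 of 17 in MC38-FUT9. With the replicate block they were 0 in MC38-COSMC KO, MC38-CMAS KO and MC38-WT against MC38-MOCK#1 and in MC38-MOCK#2 and MC38-COSMC KO against MC38-WT, and 6 of 11 in the line labelled FUT4.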
